A study of Mus musculus with 40 samples.

Results

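Oligodendrocyte precursors are the dividing glial cells that give rise to the myelinating cells of the brain. Here 8 genes that mark successive steps of this lineage were described: Pdgfra, Cspg4, Gpr17, Olig1, Olig2, Sox10, Enpp6 and Bcas1. They were chosen by name, as the rows of the deposited gene table that carry these symbols, and they are 8 of 55539 features listed and 8 of the 15224 features that passed the filter on low counts.

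The samples were left somatomotor cortices of female 3xTg-AD mice on C57BL/6J, aged 2 to 4 months, profiled by bulk RNA sequencing. Every mouse, controls included, carried the 3xTg-AD alleles, which include human APP and human tau transgenes driven by the neuronal Thy1 promoter. Closed head injury (CHI) was delivered under isoflurane by a falling weight on the intact skull, once daily, 1 to 5 times. Cortex was taken from 10 mice after the first injury (1xCHI; 3 at 30 min, 3 at 4 h, 4 at 24 h), 9 after the third (3xCHI; 3 at 30 min, 2 at 4 h, 4 at 24 h) and 10 after the fifth (5xCHI; 3 at 30 min, 3 at 4 h, 4 at 24 h). A further 3 were taken 24 h after the second injury (2xCHI) and 3 at 24 h after the fourth (4xCHI). The 4 sham-injured mice received anesthesia without injury, with exposures and times pooled into 1 group. The 2xCHI 24 h and 4xCHI 24 h groups served as the state just before the third and the fifth injury. Sample 30, of the 3xCHI 4 h group, was left out, because its animal had been removed as an outlier in protein measurements, which left 39 samples. Each sample was a different mouse, so the p-values of the group comparisons measure the spread between mice. The permutation p of the correlations shuffled samples over all groups and does not measure the spread within a group.

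The precursor state is maintained by platelet-derived growth factor acting on its receptor Pdgfra and is shared with the surface proteoglycan Cspg4 (NG2). When a precursor commits to differentiation, it loses both and passes through a short stage marked by the receptor Gpr17, then by the choline phosphodiesterase Enpp6 and the myelin-associated protein Bcas1, around the time when myelin is first made. The transcription factors Olig1, Olig2 and Sox10 are expressed from precursor to myelinating cell. In cortex these markers are not wholly private to the lineage, because pericytes also express Cspg4 and meningeal and perivascular fibroblasts also express Pdgfra. In bulk tissue, fewer cells of a type and less RNA per cell cannot be told apart.

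The 2 genes below stand at different steps of the sequence, Pdgfra in dividing precursors and Enpp6 in newly formed oligodendrocytes, and their levels had r = 0.16 over the 39 samples (adjusted permutation p = 0.365), so the 250 bases before each RefSeq start are shown. Both were read from the RefSeq promoter table of build GRCm38.p6, which holds entries for 4 of the 8 genes. Capitals mark the SOX-type letters ACAAAG or ACAATG and the E-box letters CANNTG, searched on both strands.
Pdgfra, chr5:75152001-75152250, plus strand: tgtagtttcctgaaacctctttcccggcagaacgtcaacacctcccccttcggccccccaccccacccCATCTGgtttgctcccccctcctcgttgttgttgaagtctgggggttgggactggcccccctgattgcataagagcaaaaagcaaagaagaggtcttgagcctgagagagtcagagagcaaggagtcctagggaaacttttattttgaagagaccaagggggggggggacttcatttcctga
Enpp6, chr8:46986637-46986886, plus strand: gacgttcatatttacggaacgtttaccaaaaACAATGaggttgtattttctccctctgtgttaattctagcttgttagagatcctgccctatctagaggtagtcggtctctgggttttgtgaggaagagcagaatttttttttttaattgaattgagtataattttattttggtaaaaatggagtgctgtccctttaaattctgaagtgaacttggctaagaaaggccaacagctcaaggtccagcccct
The Pdgfra stretch held 1 E-box and no SOX-type match, and the Enpp6 stretch held 1 SOX-type match and no E-box. Over 32851 promoters of the same 250 bases, 66.2% held an E-box and 25.2% held either SOX-type run, so neither match sets these genes apart. Base composition differed, with 54.4% G and C in the Pdgfra stretch and 38.4% in that of Enpp6, against a median of 52.4% over all promoters.

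In the annotation of the same build (GRCm38, which is mm10), all 8 genes are protein coding. Pdgfra lies at chr5:75152292-75198215, Cspg4 at chr9:56865033-56899870 and Enpp6 at chr8:46986887-47096762, all on the plus strand. Olig2, at chr16:91225457-91228677, and Olig1, at chr16:91269772-91271933, are neighbours on the plus strand of 1 chromosome. Sox10 (chr15:79154908-79165240), Bcas1 (chr2:170346991-170427845) and Gpr17 (chr18:31942997-31949636) lie on the minus strand.

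Summed counts ranged from 15926014 to 27859547 per sample, with a median of 19028778. Even the gene with the fewest counts, Enpp6, had 73 to 266 counts in each sample. Several samples stood apart. Sample 11 (5xCHI 24 h) and sample 10 (5xCHI 4 h) had the highest summed microglia markers, at 1118 and 857 CPM (counts scaled to a common library size), and the highest levels of Gfap, the intermediate filament of reactive astrocytes, at 2417 and 1631 CPM. In the other 37 samples the 10 microglia markers summed to at most 504 CPM. Sample 15 (1xCHI 4 h) and sample 38 (3xCHI 24 h) had the highest sums of 11 meningeal and perivascular fibroblast markers, at 567 and 303 CPM. The 4 highest shares of mitochondrial counts, 8.99% to 10.3%, were in samples 13 and 14 (1xCHI 30 min) and 15 and 16 (1xCHI 4 h), against 6.09% to 6.89% in the sham-injured samples. Results that rest on samples 10, 11, 15 and 38 are given with and without them. Samples numbered 1 to 18 also differed from those numbered 19 to 40, since 47.7% of all features differed between these number ranges after adjustment, and no batch is named for the split. All 2xCHI 24 h and 4xCHI 24 h samples were numbered 19 or above and both 3xCHI 4 h samples below.

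Bcas1 and Olig1 were the most abundant of the 8 genes per length of transcript. On the scale of CPM per kilobase of exon, Bcas1 averaged 44.8 ± 9.50 and Olig1 42.8 ± 7.57 (SD, n = 39). Next came Sox10 at 11.9 ± 2.85, Olig2 at 9.67 ± 1.79 and Gpr17 at 7.43 ± 1.63 on the same scale. Pdgfra averaged 4.10 ± 0.776, Cspg4 1.41 ± 0.236 and Enpp6 1.23 ± 0.317 CPM per kilobase. Bcas1 was above Olig1 in 24 of 39 samples and Cspg4 above Enpp6 in 24 of 39, so these 2 neighbouring pairs did not differ beyond their spread. Olig1 exceeded Sox10, Gpr17 exceeded Pdgfra, and Pdgfra exceeded Cspg4 in 39 of 39 samples. Sox10 was above Olig2 in 33 samples and Olig2 above Gpr17 in 34. The highest level of a gene was between 2.26 times its lowest (Pdgfra, Olig2) and 3.09 times (Sox10) over the 39 samples.

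No gene of the 8 passed an adjusted p of 0.05 in any of the 22 comparisons between injury or time groups (edgeR quasi-likelihood test, Benjamini-Hochberg over 15224 features). This was the common outcome in these data, since 0% of all features passed in each comparison against the sham-injured, 2xCHI 24 h or 4xCHI 24 h group. The comparisons with any such call were that of the time points, at 0.0328% of features, and that of 5xCHI with 1xCHI, at 1.1%. The values below are therefore given as levels, log2 fold changes with 95% intervals, and adjusted p-values, with the share of all features that reached an unadjusted p under 0.05. A 95% interval that leaves out 0 corresponds to an unadjusted p under 0.05. The plot of levels by group shows every sample.

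**Figure D1:**
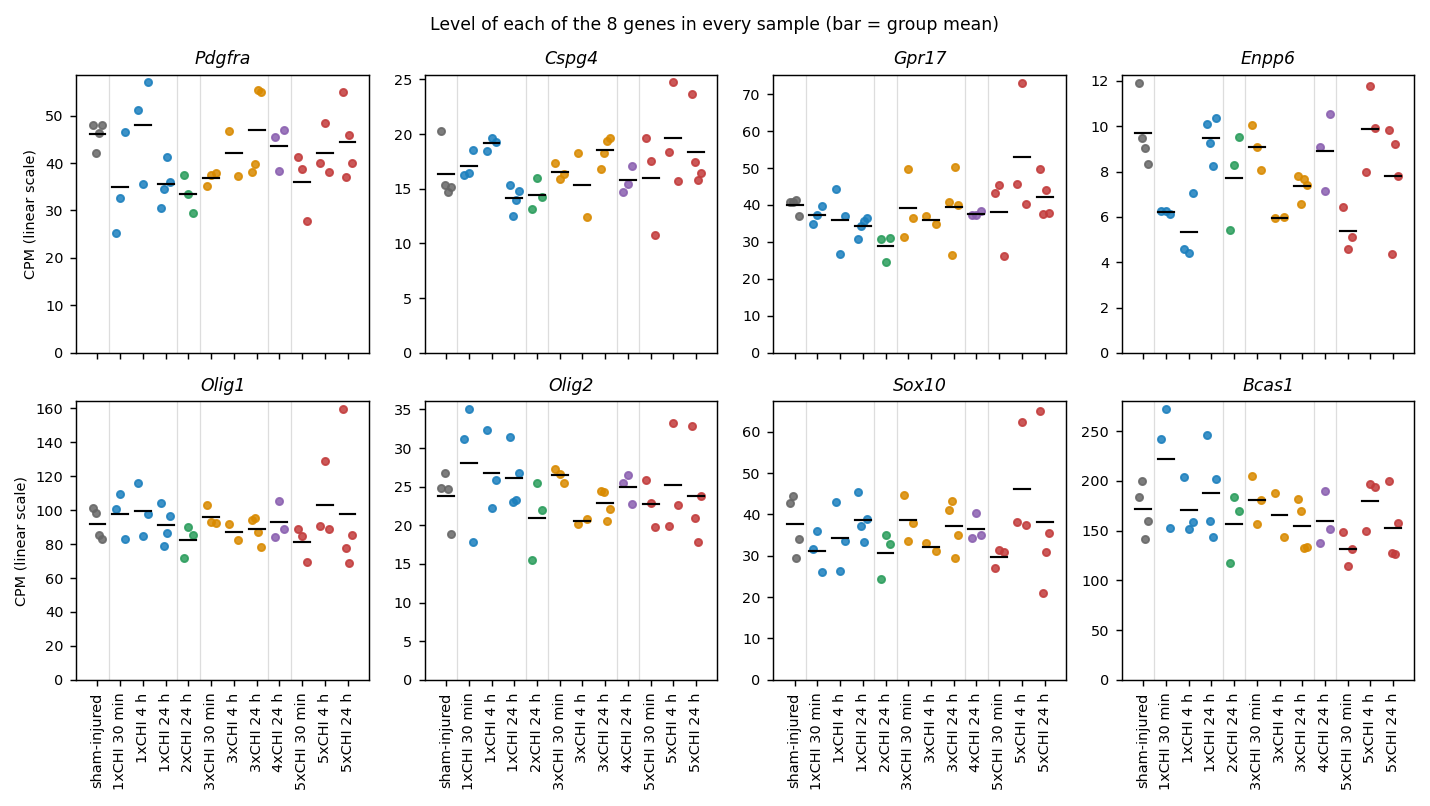
Each panel shows 1 of the 8 genes, with the level in CPM on a linear axis that starts at 0 and the 12 injury and time groups along the horizontal axis; points are samples, colours mark the number of injuries and bars are group means. Enpp6 lay between 4.42 and 7.04 CPM in all samples at 30 min and 4 h after 1xCHI, below the 8.34 to 11.9 CPM of the sham-injured samples, and the highest Olig1 and Sox10 points are samples 10 and 11.

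Enpp6, the marker of newly formed oligodendrocytes, was lower than in its reference group at 30 min and 4 h after the first injury and at 30 min after the fifth, without passing adjustment. In the sham-injured samples its level was 11.9, 9.50, 9.03 and 8.34 CPM. At 30 min after 1xCHI it was 6.25, 6.25 and 6.14 CPM. At 4 h it was 4.56, 4.42 and 7.04 CPM. All 6 of these early samples were below all 4 sham-injured samples, while the 24 h samples, at 10.1, 9.25, 8.23 and 10.4 CPM, overlapped them. Of the 6, samples 13 to 16 had the highest mitochondrial shares, while samples 27 and 36, with 7.105% and 6.252%, had 6.14 and 7.04 CPM, also below the sham-injured samples. The part of the mitochondrial share in the Enpp6 values was not tested. The log2 fold change against sham-injured was -0.64 at 30 min (95% interval -1.08 to -0.21, adjusted p = 0.167), -0.86 at 4 h (-1.30 to -0.42, adjusted p = 0.252) and -0.03 at 24 h (-0.42 to 0.36, adjusted p = 0.964) by edgeR. An unadjusted p under 0.05 in the lower direction was reached by 6.71% of all features at 30 min and by 3.57% at 4 h, and 4.13% and 2.38% were lower without overlap. Without sample 36, the highest of the 4 h group, the difference at 4 h was -1.13 with an adjusted p of 0.0176, and with the other samples left out in turn it was as small as -0.74. Without sample 15, which had the high fibroblast sum, and sample 38 it was -0.76 (adjusted p = 0.68).

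Enpp6 was also low at 30 min after the fifth injury. It was 6.45, 4.58 and 5.11 CPM there, against 9.07, 7.16 and 10.5 CPM in the 4xCHI 24 h group, and the groups did not overlap. In this pair of groups, 9.72% of all features were lower without overlap. The log2 fold change was -0.73 (-1.20 to -0.26, adjusted p = 0.78 by edgeR), where 2.84% of all features were lower at an unadjusted p under 0.05. Sox10 did not overlap either, at 27.1 to 31.4 CPM against 34.3 to 40.4 CPM. Some genes of the myelinating stage, given below, were lower in this pair of groups too. After the first injury none of those reached an unadjusted p under 0.05 at 30 min or 4 h. The part of these genes in the Enpp6 value was not tested. At 4 h after 5xCHI the Enpp6 levels were 7.96, 11.8 and 9.93 CPM, within or above the range of the 4xCHI samples, and at 24 h they were 9.82, 4.35, 9.20 and 7.81 CPM, so the spread was wide. After the third injury the 30 min samples were not low. The 3xCHI 30 min samples had 10.1, 9.09 and 8.05 CPM and both 4 h samples 5.94 and 5.98 CPM, against 5.42, 8.28 and 9.51 CPM before it, with log2 fold changes of 0.23 (-0.23 to 0.69) and -0.37 (-0.90 to 0.15).

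Tested over all 3 series of time points at once, Enpp6 had an adjusted p of 0.172 by edgeR. It was 1 of 2 of the 8 genes, with Pdgfra, at an unadjusted p under 0.05, where 4.25% of all features were. The likelihood-ratio test of DESeq2 gave an adjusted p of 0.00224 for the same question, so this call depended on the tool. It also crossed the threshold by edgeR without sample 12, the lowest of the 5xCHI 24 h group (adjusted p = 0.0466). With a term for samples 1 to 18 the adjusted p was 0.176. Whether the response of Enpp6 differed between the first, the third and the fifth injury was tested at each time. Unadjusted p were under 0.05 at 30 min and at 4 h, as for 4.45% and 2.45% of all features, and the adjusted p were 0.996 and 1 by edgeR, so no difference passed.

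**Figure D2:**
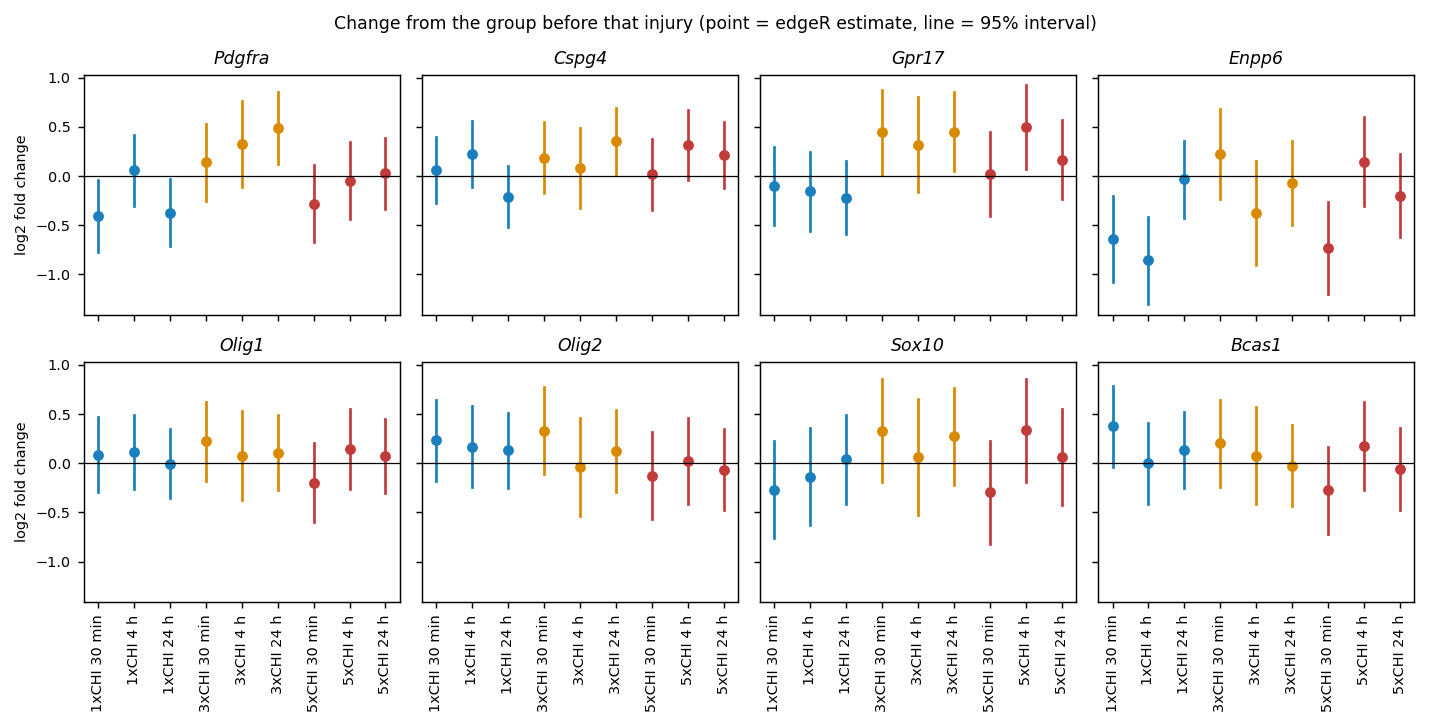
Each panel shows 1 gene, with the log2 fold change of the 3 time points after 1xCHI (against sham-injured), 3xCHI (against 2xCHI 24 h) and 5xCHI (against 4xCHI 24 h); points are edgeR estimates and lines their 95% intervals. The intervals of Enpp6 at 30 min and 4 h after 1xCHI and at 30 min after 5xCHI and of Pdgfra at 30 min and 24 h after 1xCHI lay below 0, and those of Pdgfra, Cspg4 and Gpr17 at 24 h after 3xCHI and of Gpr17 at 30 min after 3xCHI and 4 h after 5xCHI lay above 0, while those of Olig1, Olig2, Sox10 and Bcas1 all included 0.

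Pdgfra, the receptor through which platelet-derived growth factor keeps precursors dividing, had its highest levels in single samples at 4 h after 1xCHI and 24 h after 3xCHI. The sham-injured samples were close together, at 47.9, 42.1, 46.4 and 47.9 CPM. At 30 min after 1xCHI Pdgfra was 25.3, 32.7 and 46.6 CPM, a log2 fold change of -0.40 (-0.77 to -0.04, adjusted p = 0.226). That value rested on which samples were counted, since without sample 27 it was -0.67 with an adjusted p of 0.0177, and without sample 13 it was -0.23. Samples 13 and 14, the lower values, had mitochondrial shares of 10.3% and 10.1%, and sample 27, within the sham-injured range of Pdgfra, had 7.105%. The part of that difference in the Pdgfra value was not tested. At 24 h after 1xCHI the levels were 30.6, 34.5, 41.4 and 36.0 CPM, all below the sham-injured samples (-0.37, -0.71 to -0.03, adjusted p = 0.703), where 2.46% of all features were lower without overlap. Mitochondrial shares of these 4 samples were 8.19%, 8.28%, 6.63% and 8.41%, against 6.09% to 6.89% in the sham-injured samples. Their part in the value was not tested. The 4 h samples between them were at 51.2, 35.6 and 57.1 CPM and overlapped the sham-injured range. At 24 h after 2xCHI, Pdgfra was 37.4, 33.4 and 29.5 CPM, again all below the sham-injured samples (-0.46, -0.87 to -0.06, adjusted p = 0.943), in a comparison with 2.12% of features lower at an unadjusted p under 0.05 and 3.83% lower without overlap. The 10 neuron markers summed to 8764 to 9007 CPM in the 2xCHI 24 h samples and to 8095 to 8455 CPM in the sham-injured samples, also without overlap, and their part in the Pdgfra value was not tested.

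Pdgfra was higher at 24 h after the third injury than in this low group, again without passing adjustment. At 30 min and 4 h after 3xCHI the levels, 35.2 to 38.0 CPM and 37.3 to 46.7 CPM, overlapped those at 24 h after 2xCHI, with log2 fold changes of 0.14 (-0.25 to 0.53) and 0.33 (-0.11 to 0.76). At 24 h after 3xCHI it was 38.0, 39.7, 55.4 and 55.1 CPM, above all 2xCHI 24 h samples (0.49, 0.13 to 0.86, adjusted p = 0.943), where 2.44% of features were higher at an unadjusted p under 0.05. Without samples 15 and 38 the value was 0.41 (adjusted p = 1). Sums of markers of other cell types also separated these groups. The 10 astrocyte markers summed to 4423 to 5168 CPM at 24 h after 3xCHI against 4035 to 4366 CPM at 24 h after 2xCHI, and the 10 microglia markers to 414 to 504 CPM against 360 to 395 CPM. The neuron sum was lower, at 7992 to 8559 CPM against 8764 to 9007 CPM. Gfap was 252 to 528 CPM against 118 to 141 CPM. The part of these sums in the values of Pdgfra, Cspg4 and Gpr17 was not tested. Pdgfra reached an unadjusted p under 0.05 in the test over injury numbers at 24 h and in the test of whether the 24 h response differed between the first, the third and the fifth injury, where 4.58% and 6.88% of all features did so, and the adjusted p were 0.984 and 0.697 by edgeR. Cspg4 also reached that level in the second of these tests (adjusted p = 0.70 by edgeR). After 5xCHI no comparison of Pdgfra reached an unadjusted p under 0.05, the log2 fold changes being -0.28 at 30 min, -0.05 at 4 h and 0.03 at 24 h. The 3 comparisons after each injury share their reference samples, so a low or high reference enters all of them.

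Cspg4, the NG2 proteoglycan, was also higher at 24 h after the third injury than just before it, without passing adjustment. Its level was 13.2, 16.0 and 14.3 CPM at 24 h after 2xCHI and 16.8, 18.3, 19.3 and 19.6 CPM at 24 h after 3xCHI, without overlap, where 3.8% of all features were higher without overlap. The log2 fold change was 0.36 (0.02 to 0.69, adjusted p = 0.943), and without samples 15 and 38 it was 0.33 (adjusted p = 1), no longer at an unadjusted p under 0.05. Against sham-injured samples, at 20.3, 15.3, 14.7 and 15.2 CPM, no time point after 1xCHI differed at an unadjusted p under 0.05, and the 4 h samples were at 18.5, 19.7 and 19.3 CPM. Beside the astrocyte, microglia and neuron sums, which did not overlap between these groups, those of the other cells that express Pdgfra and Cspg4 did overlap. At 24 h after 3xCHI the 11 fibroblast markers summed to 136 to 303 CPM against 135 to 162 CPM at 24 h after 2xCHI, 4 of the 11 were higher at an unadjusted p under 0.05 (1 of the 11 without samples 15 and 38), and none was at 0 in any sample. The 10 mural cell markers summed to 168 to 236 CPM against 216 to 253 CPM, and 0 of the 10 reached an unadjusted p under 0.05. Over the 39 samples, the fibroblast sum had r = 0.20 with Pdgfra and r = 0.16 with Cspg4, and the mural sum r = -0.00268 and r = -0.15, with the smallest adjusted permutation p of these 4 at 0.414. Their part in the result was not tested.

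Gpr17, the receptor of committed precursors that is switched off before myelination, had its lowest single value at 24 h after the second injury, 24.7 CPM. The 3 samples were at 30.8, 24.7 and 31.0 CPM and the sham-injured samples at 40.9, 40.9, 41.3 and 36.9 CPM, without overlap (-0.48, -0.88 to -0.07, adjusted p = 0.943), as for 3.83% of all features in this direction. Against that low group, Gpr17 was higher after 3xCHI by 0.45 at 30 min (0.02 to 0.88), with samples at 31.3, 49.7 and 36.6 CPM that all lay above the reference, and by 0.45 at 24 h (0.05 to 0.86), with samples at 40.8, 26.5, 50.3 and 39.9 CPM that overlapped the reference. At 4 h both samples, at 37.15 and 34.8 CPM, lay above the reference too (0.32, -0.16 to 0.80), as for 10.6% of all features. The microglia sums of the 2 groups at 24 h, 414 to 504 CPM against 360 to 395 CPM, did not overlap. At 30 min the neuron sum was 7747 to 8419 CPM against 8764 to 9007 CPM, and Gfap was 209 to 411 CPM against 118 to 141 CPM, both without overlap. At 4 h the neuron sum was 7927 to 8274 CPM, the microglia sum 403.8 to 458.5 CPM and Gfap 211.3 to 479 CPM, also without overlap with that reference. Their part in the Gpr17 values was not tested. The adjusted p of these edgeR tests were 1 at 30 min, 1 at 4 h and 0.943 at 24 h, and at 30 min 1.16% of all features were higher at an unadjusted p under 0.05 and 5.06% were higher without overlap. With each sample left out in turn the value at 30 min ran from 0.23 to 0.59. At 24 h after 1xCHI, Gpr17 was 30.9, 34.2, 35.7 and 36.6 CPM, also below all sham-injured samples but by a small gap, 36.6 against 36.9 CPM (-0.22, -0.59 to 0.15, adjusted p = 0.713), where 2.46% of all features were lower without overlap. After 5xCHI the highest Gpr17 level of the series, 72.9 CPM, was in sample 10 at 4 h, beside 45.7 and 40.4 CPM in the same group and 37.4, 37.2 and 38.3 CPM before that injury. The log2 fold change there was 0.50 (adjusted p = 0.929), in a comparison with 3.53% of features higher at an unadjusted p under 0.05, and 0.19 (adjusted p = 0.999) without samples 10 and 11, no longer at an unadjusted p under 0.05. In that comparison 7.23% of all features were higher without overlap. The 10 microglia markers summed to 377 to 857 CPM in that group against 360 to 408 CPM in the 4xCHI 24 h group, and 5 of 10 were higher at an unadjusted p under 0.05, or 0 of 10 without samples 10 and 11. Their part in the Gpr17 value was not tested.

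The transcription factors Olig1, Olig2 and Sox10, which are present throughout the lineage, had no comparison between injury or time groups with an unadjusted p under 0.05. Sham-injured levels were 82.9 to 101 CPM for Olig1, 18.9 to 26.8 CPM for Olig2 and 29.3 to 44.4 CPM for Sox10. The log2 fold change of Olig1 over the 9 comparisons of a time point with the group before that injury ran from -0.20 to 0.22. That of Olig2 ran from -0.13 to 0.33 and that of Sox10 from -0.30 to 0.34. The 95% intervals reached -0.60 and 0.63 for Olig1 and -0.82 and 0.86 for Sox10, so with 2 to 4 mice per group differences within these bounds could not be told from 0. Sox10 was 27.1, 31.4 and 30.8 CPM at 30 min after 5xCHI, below the 34.3, 40.4 and 35.0 CPM of the 4xCHI 24 h samples (-0.30, -0.82 to 0.23, adjusted p = 0.843), and 9.72% of all features were lower without overlap there. Olig1 was 103, 93.0 and 92.3 CPM at 30 min after 3xCHI, above the 71.5, 90.2 and 85.3 CPM of the 2xCHI 24 h samples (0.22, -0.18 to 0.63, adjusted p = 1), and 5.06% of all features were higher without overlap there. Of the 3xCHI 30 min samples 2 of 3 were numbered 1 to 18, and of the 2xCHI 24 h samples 0 of 3. With group as a covariate, Olig1 was higher in samples 1 to 18 than in samples 19 to 40 by 0.23 (adjusted p = 0.0265, edgeR). The neuron sum and Gfap, given with Gpr17, separated the same groups, and their part in the Olig1 value was not tested.

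Bcas1, which marks oligodendrocytes that have begun to make myelin, was lower after 5 injuries than after 1 at matched times by a log2 fold change of -0.33 (-0.57 to -0.08, adjusted p = 0.155), where 8.3% of features were lower at an unadjusted p under 0.05. Its level after 1xCHI was 242, 272 and 153 CPM at 30 min, 204, 151 and 159 CPM at 4 h and 246, 159, 144 and 202 CPM at 24 h. After 5xCHI it was 148, 114 and 132 CPM at 30 min, 149, 197 and 194 CPM at 4 h and 200, 128, 126 and 158 CPM at 24 h. The groups overlapped at 4 h and 24 h, and at 30 min the highest 5xCHI sample, at 148 CPM, was close to the lowest 1xCHI sample, at 153 CPM. Mitochondrial shares ran from 6.25% to 10.3% after 1xCHI and from 6.01% to 8.47% after 5xCHI, where the 5 samples with the highest Bcas1 after 1xCHI (13, 14, 15, 17 and 28) had 8.19% to 10.3%, and samples 16 and 18, with 8.99% and 8.28%, had 151 and 159 CPM. Their part in the difference was not tested. Without sample 27 the difference passed adjustment (-0.40, adjusted p = 0.0471). Within samples 19 to 40 the groups were compared by injury number, with time points pooled and not matched, and the value was -0.11 (adjusted p = 0.978). In the comparison at matched times Gpr17 was higher after 5 injuries by 0.30 (0.06 to 0.53, adjusted p = 0.184), as were 8.07% of all features at an unadjusted p under 0.05. Without samples 10 and 11 this was 0.18 (adjusted p = 0.384). Within samples 19 to 40, again with time points pooled, it was -0.01 (adjusted p = 0.997). At 30 min after 1xCHI the log2 fold change of Bcas1 against sham-injured was 0.38 (-0.03 to 0.79, adjusted p = 0.28), and without sample 27, the lowest of that group, it was 0.59 (adjusted p = 0.0431). For 3xCHI against 1xCHI the 8 log2 fold changes ran from -0.22 for Olig2 to 0.11 for Enpp6, and none reached an unadjusted p under 0.05, as 9.47% of all features did. In the comparison of 5xCHI with 1xCHI, 9 of 10 microglia markers were higher at an unadjusted p under 0.05, 2 of them after adjustment, and 3 of 10 without samples 10 and 11. Their part in the values of Gpr17 and Bcas1 was not tested.

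With time points combined, the 8 genes had a median log2 fold change against sham-injured of -0.04 for 1xCHI, -0.24 for 2xCHI, -0.05 for 3xCHI, -0.07 for 4xCHI and 0.01 for 5xCHI, where the median of all features lay between -0.01 and 0.01. All 8 estimates were below 0 after 2xCHI, from -0.48 for Gpr17 to -0.13 for Bcas1, in the group whose neuron sum lay above that of all sham-injured samples, and the part of this in the 8 values was not tested. The 2 with an unadjusted p under 0.05 were Pdgfra and Gpr17, where 4.45% of all features were. In the other 4 comparisons 0 of the 8 were, against 17.2% of all features for 1xCHI, 3.86% for 3xCHI, 1.7% for 4xCHI and 11.6% for 5xCHI. At 24 h the slope per added injury ran from -0.05 for Enpp6 to 0.05 for Cspg4, and none reached an unadjusted p under 0.05, against 5.78% of features.

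Other genes of the lineage were counted in the same fits. Of 16 other precursor genes, 3 were lower at an unadjusted p under 0.05 after 2xCHI, with a median of -0.29 over the 16, and 2.12% of all features were lower. Those of lowest p were Vcan, a large matrix proteoglycan (-0.43), and Pcdh15, a protocadherin (-0.49). At 24 h after 3xCHI 3 of the 16 were higher and none lower at that level, with a median of 0.25, and 2.44% of all features were higher. Without samples 15 and 38, 1 of the 16 was higher, with the same median. The lowest p among them were those of Vcan (0.61) and Pcdh15 (0.45). Among 13 other genes of committed and newly formed oligodendrocytes, 3 were lower after 2xCHI, and 1 was higher at 24 h after 3xCHI, namely Myrf, the transcription factor that starts the myelin program (0.61). The adjusted p of all genes named here was 0.943 by edgeR.

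Genes of the myelinating stage, which follows that of Enpp6, were counted in the same early groups. At 30 min after 5xCHI, 5 of 15 myelinating genes were lower and none higher at an unadjusted p under 0.05, with a median of -0.42, where 2.84% of all features were lower and 3.52% higher. The lowest p of these were Aspa, the enzyme that splits N-acetylaspartate in oligodendrocytes (-0.81) and Opalin, an oligodendrocyte membrane protein (-0.91). Ugt8a, which makes the myelin lipid galactosylceramide, was also lower there (-0.78). It belongs to the other genes of committed and newly formed oligodendrocytes, whose sum overlapped between these groups (543.9 to 621.1 CPM against 579.9 to 603 CPM). After the first injury 0 of the 15 myelinating genes reached an unadjusted p under 0.05 at 30 min or at 4 h, with medians of -0.03 and -0.11, where 19.7% and 10.5% of all features did so. Gpr37, a receptor that restrains differentiation of oligodendrocytes, had log2 fold changes of -0.45 at 30 min (adjusted p = 0.192) and -0.47 at 4 h (adjusted p = 0.383) after 1xCHI and of -0.62 at 30 min after 5xCHI (adjusted p = 0.78). Of 9 genes listed as regulators of differentiation, 3 were lower and 1 higher at 30 min after 1xCHI at an unadjusted p under 0.05, where 6.71% of all features were lower and 13% higher. They included the Notch ligand Jag1 (-0.80, adjusted p = 0.167) and the Notch target Hes1 (0.63, adjusted p = 0.21).

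Growth factors and receptors that act on precursors were counted next. Of 15 tested, 1 was higher at 30 min after 1xCHI at an unadjusted p under 0.05, namely Pdgfa, the ligand of Pdgfra (0.48, adjusted p = 0.219), and none was lower, where 13% of all features were higher and 6.71% lower. None reached an unadjusted p under 0.05 at 4 h or 24 h after 1xCHI, where 10.5% and 6.02% of all features did so. In the comparison of 5xCHI with 1xCHI the growth factor receptor gene Fgfr3 was higher (0.30, adjusted p = 0.124) and Ntrk3 lower (-0.11, adjusted p = 0.303), both at an unadjusted p under 0.05, and 0 of the 15 were at that level without samples 10 and 11. Of 10 cell cycle genes, 6 passed the filter, and 2 of the 6 were higher after 5xCHI than after 1xCHI at an unadjusted p under 0.05, as were 8.07% of all features, with a median of 0.30. Without samples 10 and 11, 0 of the 6 were higher and 1 was lower, with a median of 0.05. Samples 10 and 11 had the highest sums of these 10 genes, at 105 and 137 CPM, against 48 to 84 CPM in the others.

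Over the 39 samples the levels of the 8 genes were compared pair by pair. Pearson correlations of log2 CPM were computed for all 28 pairs, and 12 had an adjusted permutation p under 0.05. The 6 pairs among Olig1, Olig2, Sox10 and Bcas1 were all called, with r from 0.61 (Sox10 and Bcas1, Spearman rho = 0.73, adjusted p = 0.00014 for r and 5.6e-05 for rho) to 0.82 (Olig1 and Olig2, rho = 0.83, adjusted p = 7e-05 and 5.6e-05, from 1e-05, the smallest p that 100000 permutations give). Within samples 1 to 18 these 6 pairs had r from 0.53 to 0.84, within samples 19 to 40 from 0.67 to 0.80, and without samples 10 and 11 from 0.56 to 0.83. The 3 pairs among Pdgfra, Cspg4 and Gpr17 were also called. Pdgfra and Cspg4 had r = 0.57 (rho = 0.52, permutation p = 6e-05 and 0.0008, adjusted p = 0.00021 and 0.00249). Pdgfra and Gpr17 had r = 0.57 (rho = 0.63, permutation p = 0.00015 and 4e-05, adjusted p = 0.00042 and 0.00016). Cspg4 and Gpr17 had r = 0.54 (rho = 0.48, permutation p = 0.0006 and 0.00228, adjusted p = 0.00153 and 0.00638). Leaving out the 2 samples farthest from the median gave r = 0.60, 0.63 and 0.32 for these 3 pairs. The last relation rested partly on samples 10 and 11, since r was 0.36 without them (adjusted p = 0.0714).

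Pdgfra and Bcas1 had r = -0.27 (permutation p = 0.0959, adjusted p = 0.141) and Pdgfra and Olig2 had r = -0.08. Cspg4 and Olig1 were called as well, with r = 0.60 (rho = 0.38, adjusted p = 0.00028 and 0.0475). Whether Cspg4 had its higher value with Olig1 or with Pdgfra changed with the measure and the samples. With the group means removed r was 0.62 with Olig1 and 0.53 with Pdgfra, but without samples 10 and 11 it was 0.40 and 0.51, and rho over all 39 samples was 0.38 and 0.52. Gpr17 and Olig1 had r = 0.39 (adjusted p = 0.0339), which was 0.12 without these samples. Among the 12 called pairs Enpp6 appeared once, with Sox10 (r = 0.59, rho = 0.57, permutation p = 6e-05 and 0.00016, adjusted p = 0.00021 and 0.00056), with r = 0.73 within samples 1 to 18, 0.43 within samples 19 to 40 and 0.55 without its 2 farthest samples. With the group means removed, the correlation of Enpp6 and Sox10 was 0.53 those among Olig1, Olig2, Sox10 and Bcas1 ran from 0.74 to 0.85, and those of Pdgfra, Cspg4 and Gpr17 from 0.46 to 0.64. On that scale 17 pairs were called, 11 of them among the 12, and r of Enpp6 was 0.385 with Olig1, 0.382 with Olig2, 0.374 with Bcas1 and 0.354 with Cspg4, against 0.303, 0.265, 0.316 and 0.0826 before the group means were removed. The permutation p on that scale took no account of the 12 group means removed, so these p-values were too small. The rise from 12 to 17 calls therefore cannot be read as a result.

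**Figure D3:**
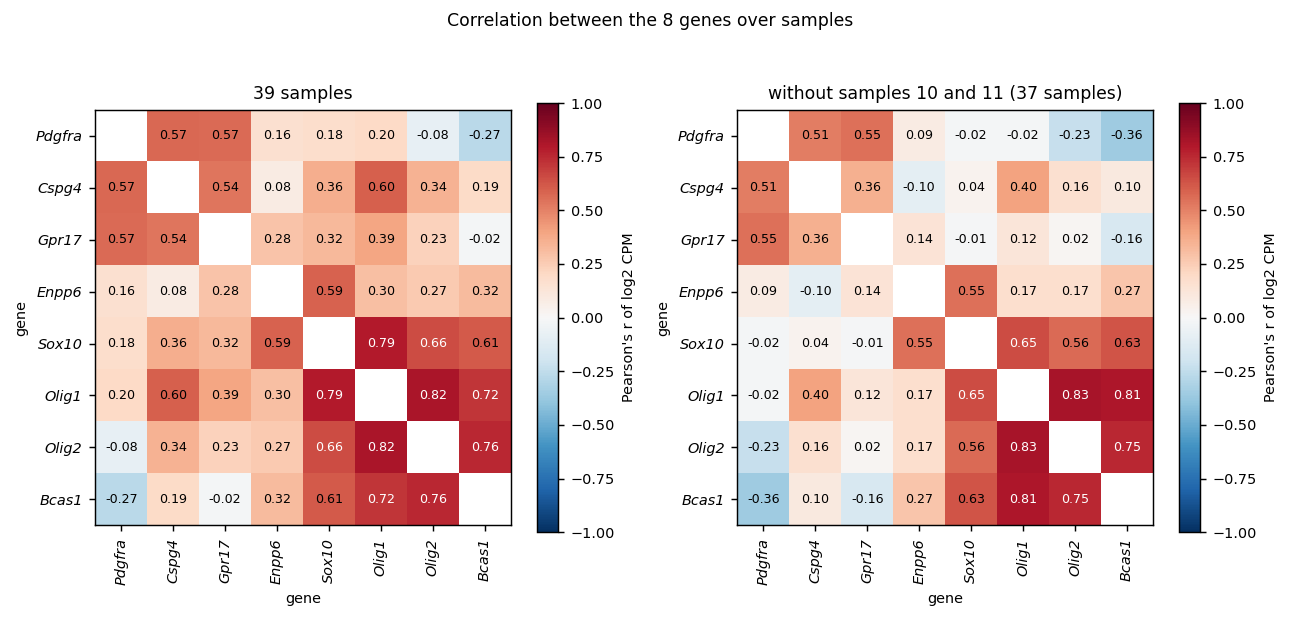
Both panels give Pearson's r of log2 CPM for each pair of the 8 genes, on a colour scale from -1 to 1, over the 39 samples on the left and without samples 10 and 11 on the right. Olig1, Olig2, Sox10 and Bcas1 form a block with r from 0.61 to 0.82 on the left, and r for Gpr17 and Olig1 drops from 0.39 to 0.12 on the right.

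Olig1, Bcas1, Sox10 and Olig2 tracked the summed level of 15 myelinating genes. Their r with the log2 of that sum was 0.89 for Olig1, 0.88 for Bcas1, 0.82 for Sox10 and 0.77 for Olig2, each with an adjusted permutation p of 8e-05 over 40 relations of members with list sums. Within samples 1 to 18 and within samples 19 to 40 the same 4 values were at least 0.68. Pdgfra had r = 0.00188 with the myelin sum (permutation p = 0.991) and 0.86 with the sum of 16 other precursor genes (adjusted p = 8e-05, 0.78 within samples 1 to 18 and 0.94 within samples 19 to 40). Gpr17 had r = 0.60 with the precursor sum (adjusted p = 0.000514) and 0.64 with the sum of the microglia markers (adjusted p = 0.000133, 0.53 without samples 10 and 11). Cspg4 had r = 0.45 with the precursor sum (adjusted p = 0.0158) and 0.42 with the myelin sum (adjusted p = 0.0243, 0.21 without samples 10 and 11). Enpp6 had r = 0.45 with the myelin sum (adjusted p = 0.0158) and 0.31 with the precursor sum (adjusted p = 0.155). All values of a sample come from 1 library, so they share its dissection and its depth. With the microglia sum, Olig1, Sox10 and Cspg4 had r = 0.58, 0.54 and 0.53, and -0.06, -0.02 and 0.16 without samples 10 and 11, and Pdgfra had 0.41 and 0.30.

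**Figure D4:**
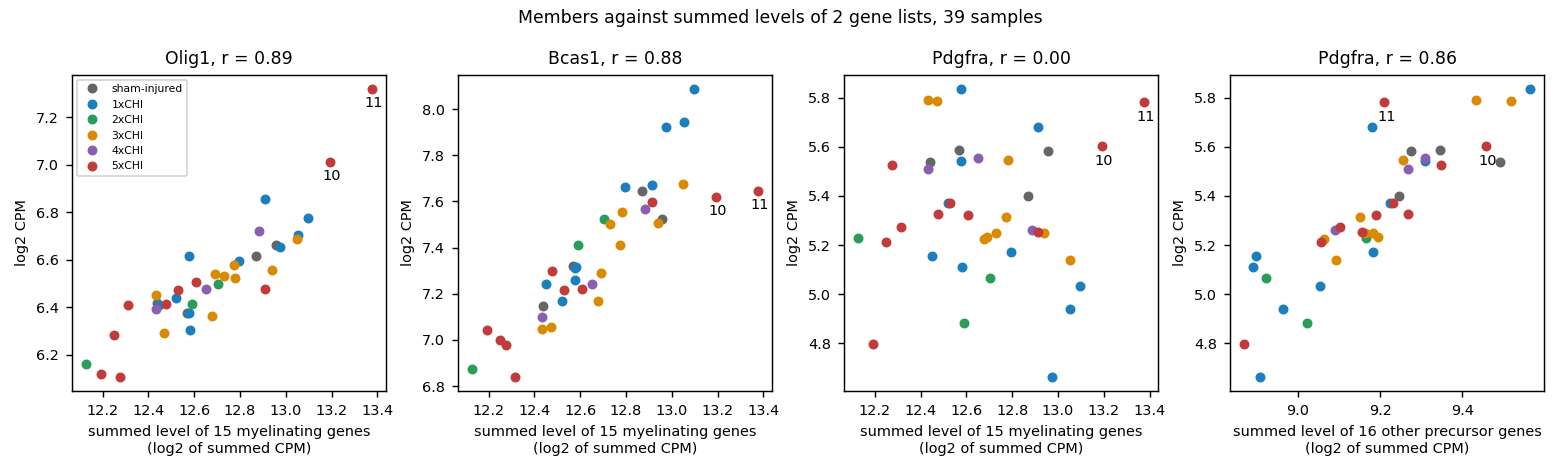
Each point is a sample, coloured by the number of injuries, with the log2 CPM of a gene on the vertical axis and the log2 of a list's summed CPM on the horizontal axis. Olig1 and Bcas1 follow the myelinating genes (r = 0.89 and 0.88), whereas Pdgfra does not (r = 0.00188) and follows the other precursor genes (r = 0.86); samples 10 and 11 are numbered.

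Outside the 8, the 3 features with the highest r of log2 CPM over the 39 samples were found for each gene, as a description. The highest r of Olig1 was with Mag (0.89), Cldn11 (0.88) and Carhsp1 (0.87), that of Sox10 with Gjb1 (0.93), Mag (0.91) and Galnt6 (0.87), and that of Bcas1 with Plekhb1 (0.93), Qdpr (0.92) and Mbp (0.91). Olig2 was most like Tspan15 (0.79), Cryab (0.78) and Plxnb3 (0.78). The highest values of Pdgfra were with Slc7a2 (0.85), Polr2a (0.84) and Ptprz1 (0.84), those of Cspg4 with S1pr2 (0.74), Itpr2 (0.73) and Adgrg1 (0.73), and those of Gpr17 with Slc1a3 (0.76), Zfp488 (0.75) and Itgam (0.74). Enpp6 was most like Gab1 (0.80), Gpr37 (0.73) and Aspa (0.73). The mean z-score of the 8 genes was most like Mag (0.87), Pacs2 (0.87) and Cldn11 (0.86).

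Between samples 1 to 18 and 19 to 40, with group as a covariate, Olig1 and Olig2 differed after adjustment, by 0.23 (0.06 to 0.40, adjusted p = 0.0265) and 0.24 (0.05 to 0.43, adjusted p = 0.0321), both higher in samples 1 to 18. That was 2 of 8 genes in a comparison that called 47.7% of all features. Without samples 10 and 11, both numbered below 19, the differences were 0.11 (adjusted p = 0.126) and 0.16 (adjusted p = 0.146). Enpp6 differed by 0.00 (-0.21 to 0.22) between these ranges.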

How the data were processed

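Total RNA from 40 samples was sequenced and quantified by the sequencing provider. The deposited values are estimated counts per gene as the authors' provider made them (build mm10 per the labels), and the quantifier's version is not given in the sources used here. They were rounded to whole numbers, and 3 human features were kept. A feature was dropped when over 4 of the 39 samples had under 10 counts. The wording of this rule is the study's, but the number of features kept here, 15224, is not the number given there. The summed counts, 15926014 to 27859547 per sample, set the counting precision. Fits used edgeR 4.0.16 (TMM, quasi-likelihood, Benjamini-Hochberg over all features) in R 4.3.3, over 6 groups by injury number or 12 by injury and time. DESeq2 1.42.0, other scalings and filters, sample 30, a term for samples 1 to 18 and each sample left out were alternatives. CPM values were TMM-scaled, with a prior count of 1 on the log2 scale. Correlations used 100000 permutations. The closest pair within a group differed by 6.85 times the counting noise (chi-square per gene), so no library was counted as a duplicate. Scripts were tested on simulated data. The 8 genes and all lists were chosen with earlier results of these data known. All 8 genes were tested in each comparison, but not all are named in each. Beyond them, the 3 features most like each gene over samples are named, with up to 2 higher and 2 lower genes of lowest p per list. The alternatives without samples 10 and 11, and without samples 15 and 38, were chosen after seeing the data.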

Additional observations from a re-analysis of the deposited data

Results flagged for a closer look

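In 56 groups of 4 to 10 samples, 3 single samples lay far from the others of their group, where chance gives about 1 in 20 groups (2.8). Cspg4 in sham-injured sample 6 was 20.3 CPM, above the 14.7 to 15.3 CPM of the other sham-injured samples. Gpr17 in sham-injured sample 39 was 36.9 CPM, below the 40.9 to 41.3 CPM of the others. Gpr17 in sample 10, within the 10 samples after 5xCHI, was 72.9 CPM, where the other 9 lay between 26.2 and 49.6 CPM.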

How the results depend on the processing

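The count of genes, of the 8, with an adjusted p under 0.05 was 0 in every comparison between injury or time groups and stayed at 0 under all alternatives run, with these exceptions. For the test of time points, DESeq2 gave 1 gene, and leaving out each sample in turn gave 0 to 1 (1 without sample 12). Leaving out each sample gave 0 to 2 genes for 1xCHI 30 min against sham-injured (without sample 27, 2, namely Pdgfra and Bcas1), 0 to 1 for 1xCHI 4 h against sham-injured (1 without sample 36) and 0 to 1 for 5xCHI against 1xCHI (1 without sample 27). For samples 1 to 18 against 19 to 40, the 2 genes became 4 with no filter on low counts, 0 without samples 10 and 11, 0 without samples 15 and 38, and 0 to 3 with each sample left out, with 0 without sample 10, 11, 17 or 33 and 1 without sample 7, 15, 26 or 27. The 17 fold changes at an unadjusted p under 0.05 gave 388 values under the alternatives, and 1 of these had the opposite direction. It was that of Gpr17 in 5xCHI against 1xCHI within samples 19 to 40 (-0.00597), where time points were pooled instead of matched. The cause was not tested. The 12 correlated pairs became 8 to 17 under other scales and subsets. The 17 came from values with group means removed, where the permutation p took no account of that removal and was too small. No paired analysis was possible because sample numbers are unique and groups share no replicate number. Every gene of the 8 had at least 73 counts in each sample, and groups held 2 to 4 mice.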
